A study of Mus musculus with 18 samples.

Results

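The ileum of homozygous IEC-*Ppara* mice was compared with the ileum of control mice across all genes expressed in it. The comparison used 12 of the 18 libraries in the series, chosen by the genotype in the sample labels: 6 homozygous IEC-*Ppara* and 6 control libraries, with 1 library per mouse. Of 55487 genes in the count files, 13480 had more than 3 CPM (the counts of a gene scaled to a fixed library total) in at least 4 of the 12 libraries and were kept. The other 6 libraries, from heterozygous IEC-*Ppara* mice, are given only beside a few genes.
All mice were littermates on a C57BL6/J background, male and female, 8 to 13 weeks old and fed chow. The IEC-*Ppara* mice carried CAG-*Ppara*,-*EGFP*, a silent construct placed at the *Col1a1* locus that Cre recombinase turns round so that it makes FLAG-tagged PPARα and EGFP, and *Villin-CreERT2*, which supplies a tamoxifen-dependent Cre in the intestinal epithelium. Homozygous mice had the construct on both alleles. Controls lacked *Villin-CreERT2*, and how many copies of the construct each control carried is not given in the sources used here. Controls and homozygous mice alike received tamoxifen at 100 mg/kg daily for 3 days and were collected 2 weeks later, so tamoxifen is shared by both groups while the Cre driver is not. The construct came from a single founder line. Ileum was taken at full thickness, so the RNA of epithelium is mixed with that of muscle, nerve, fibroblasts and immune cells, and in such bulk tissue fewer cells of a type and less RNA per cell cannot be told apart.
PPARα is a nuclear receptor activated by fatty acids. It pairs with a retinoid X receptor and binds a direct repeat of the hexamer AGGTCA spaced by a single base, called DR1, near genes that burn, bind and store fat. In the small intestine the receptor acts in enterocytes, the cells that take up dietary lipid, and its known targets there include genes of fatty acid oxidation and fatty acid binding. The comparison asks which of these genes, and which others, differ when the epithelium is made to express more of the receptor.

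Control libraries held 38528522 to 50376371 counts in genes and homozygous libraries held 39475524 to 49348797. Neither this total (two-sided exact permutation test, p = 0.766), nor the share of counts on mitochondrially encoded genes (p = 0.561), nor the share on the 10 genes of highest count (p = 0.974) separated the groups, with an adjusted p of 0.974 for each of the 3. Enterocyte markers were abundant throughout, and *Vil1*, which encodes the villin of the brush border, stood between 2088 and 3247 CPM in every library. Some libraries stood apart in their cell makeup. Summed over 12 B cell markers, all found and none at 0 throughout, control 2 held 656 CPM, control 3 held 521 CPM and homozygous 1 held 106 CPM, while the others held between 14.4 and 25.0 CPM. Summed over 10 smooth muscle markers, control 6 held 682 CPM against 2626 to 6140 CPM in the other controls and 4157 to 9690 CPM in homozygous mice. *Xist* and *Ddx3y* matched the labelled sex in all 12 libraries.

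*Ppara* was the first check of the labels. It ranged from 25.8 to 47.4 CPM in controls with a median of 39.4 CPM, and from 184 to 279 CPM in homozygous mice with a median of 211 CPM. Every homozygous library lay above every control. The rise was 2.52 on the log2 scale (SE 0.16, edgeR adjusted p = 3.43e-06). Reads of the transgene and of the endogenous gene are not separated in these counts. The driver CreERT2 carries a mutated ligand-binding part of an estrogen receptor. *Esr1*, a mouse estrogen receptor gene, stood at 2.34 to 7.84 CPM in controls and at 67.4 to 85.2 CPM in homozygous mice (log2 fold change 3.90, SE 0.23, edgeR adjusted p = 2.06e-06). Heterozygous mice, which carry the same driver, ranged from 75.9 to 92.8 CPM for *Esr1*, and whether reads of the driver fell on it was not tested. *Col1a1*, the insertion locus, ranged from 316 to 1000 CPM in controls and from 480 to 1125 CPM in homozygous mice, and the groups overlapped (log2 fold change 0.45, SE 0.29, edgeR adjusted p = 0.747). Within 5 Mb of *Col1a1*, 0 of 124 genes kept passed, and the smallest edgeR adjusted p there was 0.209. Of 17 kept genes for PPAR receptors, retinoid X receptors and their coactivators and corepressors, *Ppara* was the only member that passed, and the median log2 fold change of the list was 0.01.

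By edgeR's quasi-likelihood test with Benjamini-Hochberg adjustment over all 13480 genes, 60 genes (0.445%) had an adjusted p under 0.05. Of these, 56 (0.415%) were higher and 4 (0.0297%) were lower in homozygous mice. At an unadjusted p under 0.001, the threshold used in the study, 97 genes (0.72%) differed, 81 higher and 16 lower. The changes were uneven in size: 12 genes rose by more than 2 on the log2 scale, 23 by more than 1, and 33 by less than 1, with a median of 0.92 and a smallest rise of 0.36. The median over all genes was 0.00, and 6981 genes were higher against 6499 lower.
In the called genes the groups seldom touched. In 54 of the 56 higher genes, all but *Chst8* and *Trio*, every homozygous library lay above every control, and in 3 of the 4 lower genes, all but *Bche*, every homozygous library lay below. Over all genes kept the groups were apart in this way for 90 genes (0.668%) with homozygous mice above and 20 genes (0.148%) with homozygous mice below, on CPM after TMM scaling. The called genes were chosen by a test on the same libraries, so their separation is a description and not further evidence. Just inside the threshold lay *Nkain1* (edgeR adjusted p = 0.0433), *Defa39* (0.0494) and *Chst8* (0.05). Just outside lay *Slc14a1* (0.0527), *Acot2* (0.0541) and *Cat* (0.0572).
With the 3 libraries richest in B cell transcripts left out, 30 genes were higher and 0 were lower, all 30 among the 56, and edgeR gave 9 lower genes at an unadjusted p under 0.001. With control 6 left out as well, 23 were higher and 0 lower, 21 of them among the 56, with 5 lower genes at an unadjusted p under 0.001. Each of these fits has fewer mice. Across the 26 alternatives, 18 genes were called in each that gave them a value, among them *Ppara*, *Esr1*, *Fabp1*, *Pdk4*, *Cyp4a10*, *Aqp3*, *Cyp2c65*, *Cyp2c66*, *Acacb*, *Acsl3*, *Slc25a20*, *Pxmp4*, *Hsd17b11*, *Gal3st2b*, *1810065E05Rik*, *Gm13394* and *BC064078*. The called genes outside these 18 lost their call in at least 1 alternative.

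**Figure D1:**
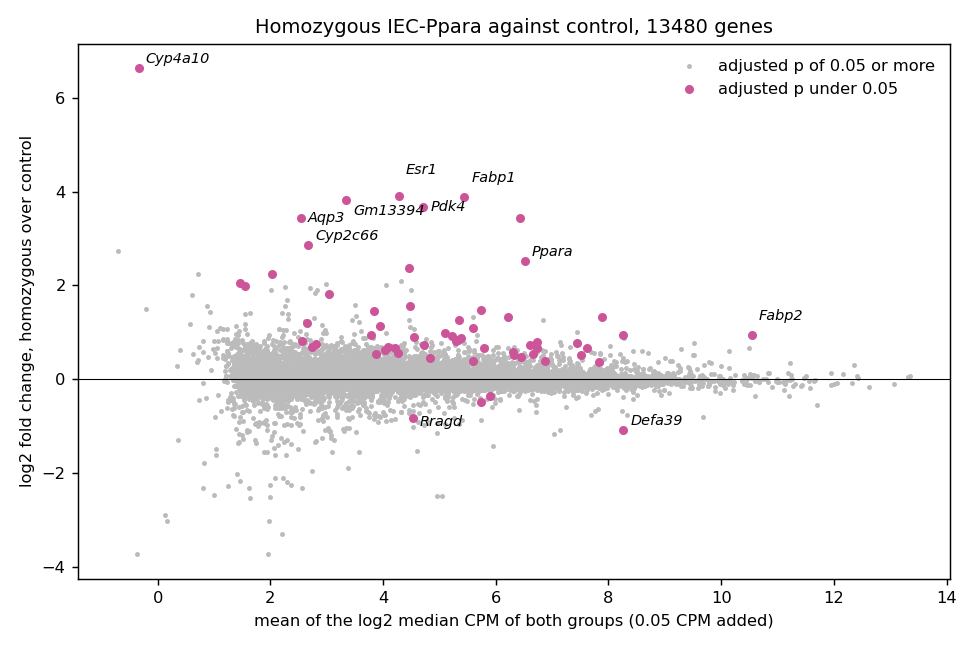
Log2 fold change of homozygous IEC-*Ppara* over control (vertical axis) against expression level (horizontal axis, mean of the log2 median CPM of both groups with 0.05 CPM added) for 13480 genes. Grey points did not pass and 60 coloured points passed an adjusted p under 0.05, and 56 of the coloured points lie above 0.

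Fatty acid binding proteins, which carry fatty acids through the cytoplasm, included the gene with the second smallest p of all. *Fabp1*, the liver-type protein (ENSMUSG00000054422, chr6:71199827-71205023, GRCm38), ranged from 6.30 to 14.1 CPM in controls with a median of 11.5 CPM and from 137 to 172 CPM in homozygous mice with a median of 163 CPM. The lowest homozygous library was far above the highest control. *Fabp1* rose by 3.89 on the log2 scale (SE 0.19, edgeR adjusted p = 2.36e-07). *Fabp2*, the intestinal-type protein, went from 851 to 1261 CPM (median 1067) in controls to 1681 to 2395 CPM (median 2075) in homozygous mice, again without overlap. Its rise was 0.95 (SE 0.13, edgeR adjusted p = 0.00434), and its adjusted p was 0.0688 without the 3 libraries richest in B cell transcripts.
Of 11 kept members of this list, 2 rose, 0 fell and 9 did not pass, with a median log2 fold change of 0.13 against 0.00 over all genes. The acyl-CoA binding protein *Dbi* stood at 0.38 (edgeR adjusted p = 0.146) and the sterol carrier *Scp2* at 0.28 (0.176). *Fabp6*, the ileal bile acid binding protein, had the opposite sign, at -0.54 (0.53).

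Entry of fatty acids into metabolism was represented by transporters, the ligases that attach coenzyme A and the thioesterases that remove it. *Acsl3*, a long-chain acyl-CoA synthetase found on lipid droplets and endoplasmic reticulum, ranged from 27.0 to 36.0 CPM in controls and from 43.5 to 68.8 CPM in homozygous mice, without overlap, and rose by 0.83 (SE 0.10, edgeR adjusted p = 0.00137). It was the only one of 12 kept uptake and activation genes to pass, and the list had a median of 0.28. *Acsl3* overlaps *Utp14b* on the same strand, which was at 0.63 (edgeR adjusted p = 0.176), so its level is uncertain where reads could fall on both. The nearest other member, the very long-chain transporter and synthetase *Slc27a2*, was at 0.51 (edgeR adjusted p = 0.145).
*Acot12*, a cytosolic thioesterase that hydrolyses acetyl-CoA, ranged from 0.830 to 3.52 CPM in controls and from 6.85 to 11.1 CPM in homozygous mice. It rose by 2.25 (SE 0.29, edgeR adjusted p = 0.00171), the only one of 10 kept thioesterases to pass. *Acot2* of mitochondria (0.88, edgeR adjusted p = 0.0541) and *Acot1* of the cytosol (1.07, 0.267) were higher on average and did not pass.

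The carnitine shuttle brings long-chain fatty acids into mitochondria for β-oxidation. *Slc22a5*, the plasma membrane carnitine transporter, rose by 0.54 (SE 0.09, edgeR adjusted p = 0.0155), from 69.4 to 93.2 CPM in controls to 100.0 to 129 CPM, and kept its call in 10 of the 12 fits short of 1 library (up to 0.054, without control 2). *Slc25a20*, which exchanges acylcarnitine for carnitine across the inner membrane, rose by 0.79 (SE 0.08, edgeR adjusted p = 0.00025). Its controls ranged from 68.2 to 95.4 CPM with a median of 81.4 CPM and its homozygous libraries from 127 to 161 CPM with a median of 139 CPM. *Acadvl*, the very long-chain dehydrogenase of the first oxidation step, ranged from 60.5 to 81.4 CPM in controls and from 91.4 to 107 CPM in homozygous mice and rose by 0.59 (SE 0.07, edgeR adjusted p = 0.00171). None of these 3 genes overlapped between groups.
Of 24 kept members of the shuttle and the mitochondrial pathway, these 3 rose, 0 fell and 21 did not pass. The list had a median of 0.27, with 20 of 24 members higher, and 17 were higher at an unadjusted p under 0.05 in edgeR's test, against 4.3% of all genes in that direction. The nearest members that did not pass were *Etfdh* (0.38, edgeR adjusted p = 0.084), which passes electrons to ubiquinone, the long-chain dehydrogenase *Acadl* (0.42, 0.11), *Hadha* of the trifunctional protein (0.33, 0.136) and the dienoyl-CoA reductase *Decr1* (0.34, 0.136). DESeq2's Wald test called 9 members in place of 3, and edgeR called 1 without the 3 libraries richest in B cell transcripts.
The machinery that uses the electrons gave no call. Of 52 kept nuclear genes for subunits of oxidative phosphorylation, 0 passed in edgeR's fit, 0 had an unadjusted p under 0.05 and 0 were called by DESeq2. Their median log2 fold change was 0.00 and their range was -0.11 to 0.16.

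The switch from pyruvate to fat as fuel held a large rise. *Pdk4*, the kinase that turns off pyruvate dehydrogenase, ranged from 1.31 to 16.1 CPM in controls (median 7.72) and from 61.9 to 179 CPM in homozygous mice (median 88.8). It rose by 3.67 (SE 0.48, edgeR adjusted p = 0.00209), again with no overlap, while the other 10 genes of the pyruvate dehydrogenase complex, its kinases and its phosphatases did not pass. *Acacb*, the acetyl-CoA carboxylase that makes malonyl-CoA at the mitochondrial surface, rose by 1.57 (SE 0.19, edgeR adjusted p = 0.00112), from 6.53 to 17.4 CPM to 30.1 to 44.7 CPM. Malonyl-CoA is an inhibitor of the carnitine shuttle. In the list of fatty acid synthesis and desaturation *Acacb* was the only one of 20 kept members to pass. The malic enzyme *Me1* (1.07, edgeR adjusted p = 0.176) and the 2-hydroxylase *Fa2h* (1.96, 0.2) were higher on average and overlapped between groups.

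**Figure D2:**
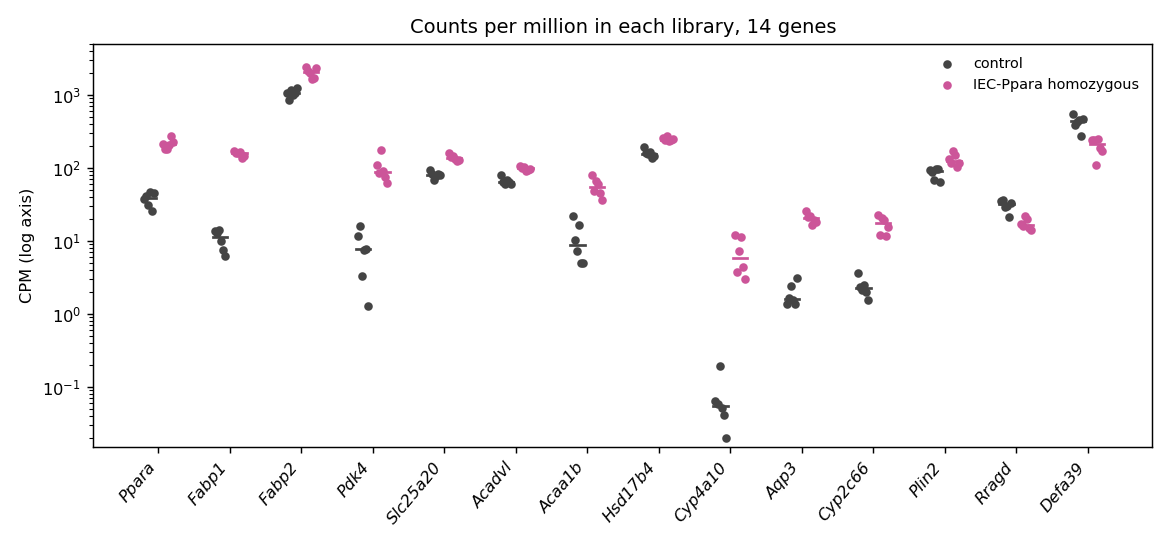
CPM on a log axis in each of the 6 control and 6 homozygous libraries for 14 genes. Each point is a library, each bar a group median, and the control of *Cyp4a10* with 0 counts is drawn at 0.02 CPM. For the first 12 genes every homozygous library lies above every control, while *Rragd* and *Defa39* lie lower.

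Peroxisomes shorten very long-chain and branched fatty acids and gave several called genes. Of 36 kept members of peroxisomal β-oxidation and the peroxins, 7 rose, 0 fell and 29 did not pass, with a median of 0.09 over the list. Without the 3 libraries richest in B cell transcripts 3 members passed, and with control 6 also left out 1 passed and the median was 0.02. *Acaa1b*, a 3-ketoacyl-CoA thiolase that completes the cycle, went from 4.96 to 22.3 CPM (median 8.87) in controls to 36.5 to 79.2 CPM (median 54.8) in homozygous mice and rose by 2.36 (SE 0.36, edgeR adjusted p = 0.00807). It has a close paralog, *Acaa1a*, so its level is uncertain where the copies share reads. It did not pass without the 3 libraries richest in B cell transcripts, nor with control 6 left out as well (edgeR adjusted p = 0.329).
*Hsd17b4*, the bifunctional enzyme of the middle steps, ranged from 139 to 195 CPM in controls and from 237 to 273 CPM in homozygous mice and rose by 0.66 (SE 0.07, edgeR adjusted p = 0.000613). The pseudogene *Cd63-ps*, which overlaps it on the same strand, was at 0.17 (0.833). *Crot*, which loads the shortened chains on carnitine for export, rose by 0.51 (SE 0.08, edgeR adjusted p = 0.0146) and *Decr2*, the peroxisomal dienoyl-CoA reductase, by 0.40 (SE 0.06, 0.00863). The membrane proteins *Pxmp4* and *Pex11a*, the second of which acts in peroxisome division, rose by 0.99 (SE 0.10, edgeR adjusted p = 0.000167) and 0.46 (SE 0.08, 0.0295), and the dehydrogenase-like *Hsdl2* by 0.83 (SE 0.10, 0.000906).
All 7 were apart between groups. *Pxmp4* ranged from 43.7 to 56.3 CPM in homozygous mice against 19.9 to 28.5 CPM in controls. *Pex11a* was the least secure: it kept its call in 3 of the 12 fits short of 1 library, and its edgeR adjusted p reached 0.0878, without control 3. *Crot* lost its call without control 2 (0.0516) and without control 3. The hydrogen peroxide scavenger *Cat* (0.40, edgeR adjusted p = 0.0572), the transporter *Abcd3* (0.44, 0.075) and the branched-chain oxidase *Acox2* (0.41, 0.209) did not pass.

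Cytochromes P450 of the ω-oxidation pathway, which attack the far end of a fatty acid, held the largest fold change of the comparison. *Cyp4a10* was read 0 to 8 times per control library (0 to 0.195 CPM, median 0.0557) and 141 to 517 times per homozygous library (3.02 to 12.0 CPM, median 5.89). The fitted rise was 6.62 (SE 0.56, edgeR adjusted p = 3.92e-05), a size that rests on those few control reads. *Cyp4b1* rose by 0.68 (SE 0.12, edgeR adjusted p = 0.025) and the aldehyde dehydrogenase *Aldh3a2*, which finishes the conversion to dicarboxylic acids, by 0.51 (SE 0.07, 0.00434). These were 3 of 12 kept members, and the list median was 0.04. *Cyp4a10* alone passed in each of the fits without libraries of unusual composition. *Cyp4b1* passed in 6 of 12 fits that left out 1 library, and its highest edgeR adjusted p was 0.0778, without control 2.
Among drug-metabolising P450 genes the *Cyp2c* cluster stood out. *Cyp2c66* ranged from 1.54 to 3.67 CPM in controls and from 11.7 to 22.7 CPM in homozygous mice and rose by 2.86 (SE 0.22, edgeR adjusted p = 2.04e-05). Its neighbour *Cyp2c65* ranged from 39.6 to 58.0 CPM and from 98.9 to 138 CPM and rose by 1.33 (SE 0.11, edgeR adjusted p = 2.88e-05). The members of this cluster are close paralogs, and reads that mapped to more than 1 place were not counted, so their levels are uncertain. Of 20 kept genes in the list these 2 passed, 12 of the 20 were lower on average and the median was -0.08. *Cyp3a25*, of the Cyp3a family, was at -0.42 (edgeR adjusted p = 0.0853), with homozygous libraries at 41.8 to 65.0 CPM below controls at 65.5 to 74.7 CPM. The reductase *Por*, which feeds electrons to all of these enzymes, was at 0.36 (0.17).

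Storage of fat in lipid droplets and its release made up another group of called genes. *Plin2*, the coat protein of the droplet, rose by 0.66 (SE 0.12, edgeR adjusted p = 0.031), from 64.6 to 98.4 CPM in controls (median 91.0) to 104 to 174 CPM (median 125). *Fitm2*, which partitions triglyceride into droplets, rose by 0.66 (SE 0.12, edgeR adjusted p = 0.0222). The hydrolases *Nceh1*, which acts on cholesterol esters and ether lipids, and *Abhd6*, a monoacylglycerol lipase, rose by 0.74 each (SE 0.10 and 0.12, edgeR adjusted p = 0.00377 and 0.0101). *Hsd17b11*, a dehydrogenase that resides on droplets and is in none of the lists, ranged from 202 to 233 CPM in controls and from 357 to 509 CPM in homozygous mice and rose by 0.94 (SE 0.08, edgeR adjusted p = 5.21e-05).
Of 19 kept droplet and lipolysis genes, 4 rose, 0 fell and 15 did not pass, with 17 of 19 higher and a median of 0.36. Without the 3 libraries richest in B cell transcripts 1 member passed, and with control 6 also left out 1 passed. *Angptl4*, an inhibitor of lipoprotein lipase, was at 0.95 (edgeR adjusted p = 0.275) and *Mgll* at 0.68 (0.32), with overlapping groups. *Plin2* passed in 4 of 12 fits that left out 1 library, with an edgeR adjusted p of up to 0.087, without control 3, and *Fitm2* in 7 of 12, up to 0.0623, without homozygous 4. Markers of mesothelium and fat also varied widely among these libraries: their mean log2 CPM ran from -1.75 to 6.38 in controls and from 0.83 to 6.45 in homozygous mice, and their part in the droplet result was not tested.
Re-esterification and export in chylomicrons gave no call. Of 22 kept genes, 0 passed in edgeR's fit (3 higher and 0 lower at an unadjusted p under 0.05), DESeq2 called 1, and the median was 0.06. The apolipoprotein *Apoa4* ranged from 12.4 to 56.7 CPM in controls and from 34.1 to 141 CPM in homozygous mice, with overlap (1.32, SE 0.47, edgeR adjusted p = 0.479). The hepatic and intestinal transcription factor *Creb3l3* was at 0.69 (0.169). Of 33 kept genes for cholesterol synthesis and sterol transport, 0 passed by edgeR or DESeq2 (0 higher and 1 lower at an unadjusted p under 0.05 in edgeR's test), with a median of -0.01.

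The list of fasting-induced PPARα targets, drawn from what is known in liver, overlaps the groups above and takes in further functions. Of its 23 kept members, 9 rose, 0 fell and 14 did not pass. Its median was 0.69 against 0.00 over all genes, and 22 of 23 were higher. The list was written with results of these libraries known, so its direction is not independent evidence. Without the 3 libraries richest in B cell transcripts the median was 0.64, and with control 6 also left out it was 0.57 and 5 members passed.
Members outside lipid oxidation included *Aqp3*, a channel for water and glycerol, which ranged from 1.37 to 3.10 CPM in controls (median 1.6) and from 16.8 to 26.0 CPM in homozygous mice (median 20.5). It rose by 3.43 (SE 0.24, edgeR adjusted p = 6.58e-06). *Aqp7*, another glycerol channel, was at 0.40 (0.084), and *Cftr*, the apical chloride channel, was at -0.68 (0.11), with overlapping groups. *Retsat*, which saturates retinol, rose by 1.09 (SE 0.13, edgeR adjusted p = 0.000778), from a control median of 32.2 CPM to a homozygous median of 73.3 CPM with no overlap, the only one of 17 kept retinoid genes to pass, and did not pass without the 3 libraries richest in B cell transcripts and control 6 (0.0824). *Vnn1*, the pantetheinase that releases cysteamine, rose by 0.78 (SE 0.12, edgeR adjusted p = 0.00863), and did not pass in either fit without libraries of unusual composition (up to 0.176 over the alternatives).

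**Figure D3:**
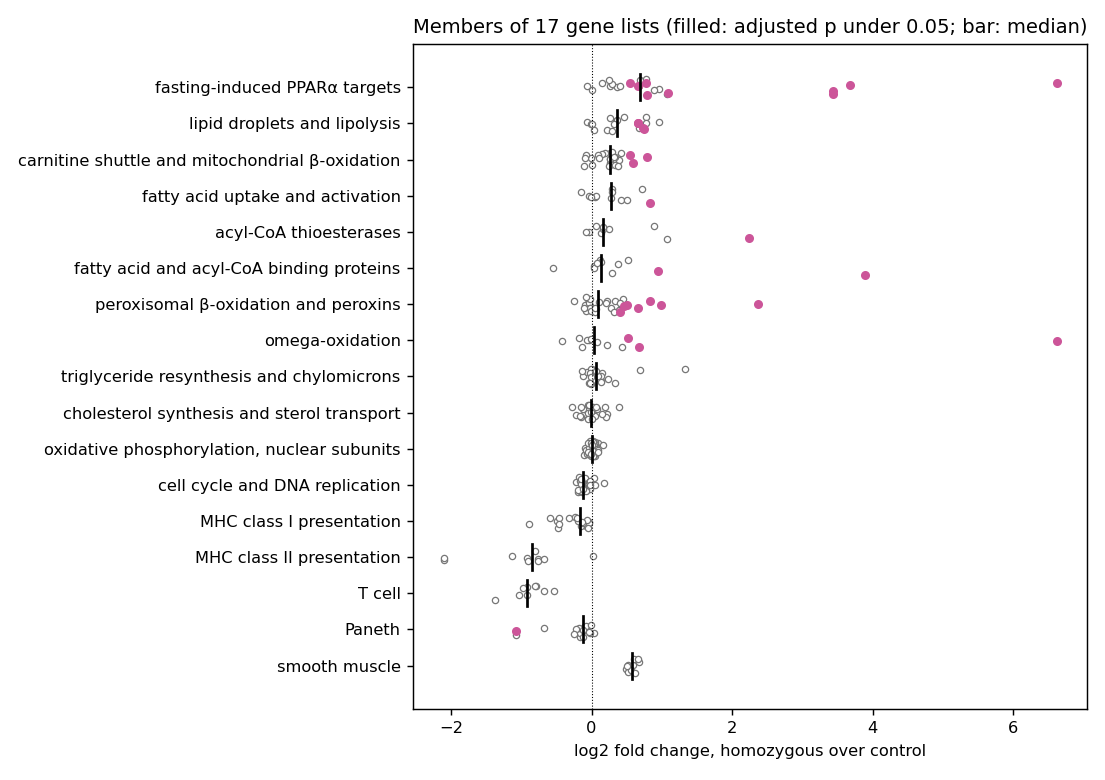
Log2 fold change of homozygous over control (horizontal axis) for the kept members of 17 gene lists (rows). Each point is a gene, filled where its adjusted p was under 0.05, and each bar is a list median, which runs from -0.92 for T cell markers to 0.69 for fasting-induced PPARα targets.

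Promoter sequence was examined for the DR1 element itself. RefSeq windows of 300 bases (GRCm38.p6), from 250 bases before to 50 after the start of a gene, were found for 48 of the 60 called genes and searched on both strands for AGGTCANAGGTCA with at most 2 mismatches in the 12 fixed bases. A match was present in 6 of 45 higher genes with a window (13.3%), in 0 of 3 lower genes, in 375 of 10135 genes kept (3.7%) and in 1268 of all 32851 windows (3.86%). The 3 sequences below are shown because they lie before the start of genes of fat metabolism that rose, those of *Acot12* and *Fabp1* being the only matches with 1 mismatch. They are written on the strand of the gene with the match in capitals, which is the reverse complement of the searched motif in each of the 3. The *Acot12* match starts 110 bases before the gene (shown: chr13:91741403-91741431, plus strand), the *Fabp1* match 67 bases before (chr6:71199804-71199832, plus strand) and the *Plin2* match 225 bases before (chr4:86670264-86670292, minus strand). These distances are counted from the start in RefSeq, which for *Fabp1* and *Acot12* lies downstream of the start in the count files, so these matches lie nearer to the latter.
*Acot12*: taggacccTGACCTCTCACCTcctaagca
*Fabp1*: acaatcacTGACCTATGGCCTatatctga
*Plin2*: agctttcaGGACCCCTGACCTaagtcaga
The other genes with a match were *Paqr7*, *Sh3d21* and *Slc25a20*. The share depends on the stringency: with at most 1 mismatch it was 4.44% of higher genes against 0.533% of genes kept, and with at most 3 it was 40% against 24.4%. A match of letters is a description and not a binding site, and windows without a match say nothing about sites elsewhere.

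Further called genes act at the cell surface, in sulfation or in detoxification. *Lamb3*, the β3 chain of laminin-332 in the basement membrane, ranged from 104 to 215 CPM in controls (median 151) and from 324 to 491 CPM in homozygous mice (median 373). It rose by 1.33 (SE 0.19, edgeR adjusted p = 0.00563), while the other 9 kept laminin-332 and hemidesmosome genes did not pass, with the plakin *Dst* nearest at 0.42 (0.199). *Lamb3* did not pass without the 3 libraries richest in B cell transcripts and control 6 (0.0907). It spans 2 genes on the opposite strand, *Hsd11b1* and *G0s2*, which were at 0.11 (edgeR adjusted p = 0.956) and 0.36 (0.876).
*Gal3st2b*, a galactose 3-O-sulfotransferase, rose by 1.27 (SE 0.10, edgeR adjusted p = 2.88e-05), from 20.7 to 28.7 CPM to 50.8 to 74.2 CPM. Its paralog *Gal3st2* was at 0.25 (0.642), and the sulfatase *Sulf2* was at 0.56 (0.0971). The carboxylesterase *Ces2b* rose by 1.13 (SE 0.21, edgeR adjusted p = 0.0351). Its ranges, 8.63 to 14.2 CPM and 14.4 to 36.7 CPM, nearly met, and it passed in 3 of 12 fits that left out 1 library, with an adjusted p of up to 0.111, without control 3. It has close paralogs.
Of the 56 higher genes, 36 are in a list and the others are in none. *1810065E05Rik* on chromosome 11 had an SE of 0.10 on a rise of 1.47 (edgeR adjusted p = 6.58e-06), from 26.8 to 37.8 CPM to 79.0 to 98.3 CPM. *Rab30*, a small GTPase of the Golgi, rose by 1.46 (SE 0.24, edgeR adjusted p = 0.0138) and *Slc22a3*, an organic cation transporter, by 1.20 (SE 0.21, 0.0233). *Rab30* did not pass in either fit without libraries of unusual composition (up to 0.197 over the alternatives). *Slc22a3* passed in 6 of 12 fits that left out 1 library, with an adjusted p of up to 0.065, without control 5. The diacylglycerol kinase *Dgkh* (0.94, SE 0.13, edgeR adjusted p = 0.00312) and the cytidine deaminase *Cda* (0.94, SE 0.16, 0.0146) rose by like amounts, and *Cda* was at 0.0519 without control 2. *Cda* also did not pass in either fit without libraries of unusual composition (up to 0.439 over the alternatives). *Dgkh* did not pass in the fit of these that left out control 6 as well (up to 0.0921 over the alternatives). *Plekho2* (0.88), *Vsig10l* (0.83) and *Htra2* (0.57), a protease of the mitochondrial intermembrane space, rose with edgeR adjusted p-values of 0.00732, 0.00746 and 0.00141. In neither fit without libraries of unusual composition did *Plekho2* or *Vsig10l* pass (up to 0.241 and 0.405 over the alternatives). *Htra2* overlaps *Aup1* and *Loxl3* on the opposite strand, which were at -0.06 (0.876) and 0.06 (0.966).
Smaller rises were measured in *Nkain1* (0.76), *Paqr7* (0.69), *Chst8* (0.68), *Osbpl1a* (0.62), *Sh3d21* (0.55), *Trio* (0.47), *Rtn4* (0.38) and *Tgoln1* (0.36). Their edgeR adjusted p-values lay between 0.0146 and 0.05. Each of these 8 lost its call in at least 1 of the 12 fits that left out a library. *Osbpl1a* lost it only without control 3 (0.0504), while *Trio* kept it in 1 of 12 fits, with an adjusted p of up to 0.107, without homozygous 3.

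The 4 genes that fell act in unlike processes. *Rragd*, a Rag GTPase that relays amino acid supply to the mTORC1 kinase, ranged from 21.5 to 36.9 CPM in controls (median 31.8) and from 14.2 to 22.0 CPM in homozygous mice (median 16.6). The ranges met only before TMM scaling, and *Rragd* fell by 0.82 on the log2 scale (SE 0.13, edgeR adjusted p = 0.0114). It kept its call with each library left out in turn, with an adjusted p of up to 0.038, without homozygous 2, but not in the fit without the 3 libraries richest in B cell transcripts. It was the only one of 18 kept genes of the Rag, folliculin and TFEB list to pass.
*Defa39*, an α-defensin of Paneth cells, ranged from 272 to 556 CPM in controls and from 111 to 249 CPM in homozygous mice and fell by 1.08 (SE 0.21, edgeR adjusted p = 0.0494). It belongs to a family of near-identical genes, so its level is uncertain, and it passed in 2 of 12 fits that left out 1 library, with an adjusted p of up to 0.133, without homozygous 6. *Bche*, which encodes butyrylcholinesterase, ranged from 48.7 to 74.5 CPM and from 39.2 to 48.2 CPM and fell by 0.49 (SE 0.09, edgeR adjusted p = 0.0348). It also passed in 2 of 12 fits, with an adjusted p of up to 0.104, without homozygous 2. *Ncapd2*, a condensin subunit, ranged from 64.7 to 79.0 CPM and from 50.8 to 58.0 CPM and fell by 0.36 (SE 0.06, edgeR adjusted p = 0.0295). It passed in 3 of 12 fits, up to 0.0832, without homozygous 5.
The 6 lower genes of smallest p that did not pass were *Slc14a1* (-0.93, edgeR adjusted p = 0.0527), a urea transporter, *H2-DMa* (-0.92, 0.0767) of MHC class II, *Wipf3* (-0.34, 0.0853), *Cyp3a25*, the stem cell marker *Olfm4* (-0.41, 0.0883) and *Cftr*. *Slc14a1* ranged from 3.02 to 5.94 CPM in controls and from 1.72 to 2.77 CPM in homozygous mice, without overlap.

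Antigen presentation genes and the markers of T and B cells were lower on average without a single call by edgeR. Of 10 kept MHC class II genes, 0 passed (0 higher and 9 lower at an unadjusted p under 0.05, against 3.15% of all genes in the lower direction), and DESeq2 called 7. The median was -0.85. *H2-DMa*, which loads peptide, ranged from 25.1 to 53.7 CPM in controls and from 15.8 to 26.4 CPM in homozygous mice, with overlap. The invariant chain *Cd74* was at -0.80 (edgeR adjusted p = 0.143) and *H2-Aa* at -0.76 (0.137). By library, the mean log2 CPM of the class was highest in control 2 (7.40) and control 3 (7.22), the libraries richest in B cell transcripts, ran from 5.83 to 6.37 in the other controls and from 5.36 to 6.09 in homozygous mice. Without controls 2 and 3 and homozygous 1 the median was -0.58, and with control 6 also left out it was -0.43.
T cell markers were lower on average too. Of 9 kept markers, 9 were lower, all 9 at an unadjusted p under 0.05 in edgeR's test, and 0 passed adjustment, while DESeq2 called 4. The median was -0.92. *Cd4* ranged from 14.3 to 28.4 CPM in controls and from 9.96 to 13.2 CPM in homozygous mice (-0.68, edgeR adjusted p = 0.176), and the kinase *Lck* from 5.84 to 16.3 CPM and from 4.39 to 5.23 CPM (-0.98, 0.248), each without overlap. *Cd3e* (-0.92, 0.145) and *Cd8a* (-0.80, 0.284) overlapped between the groups. Summed over the 13 markers of the list, all found, controls ranged from 53.9 CPM in control 4 to 146 CPM in control 2, and homozygous mice from 46.4 to 70.5 CPM. Without the 3 libraries richest in B cell transcripts the median was -0.61, and with control 6 also left out it was -0.41.
B cell markers themselves, *Cd79a* (-2.25), *Cd79b* (-2.30) and *Cd22* (-2.19), had edgeR adjusted p-values from 0.528 to 0.598, and the other 9 of the 12 were below the filter. Their median was -0.48 without the 3 libraries that hold most of these reads. All 20 kept genes of MHC class I presentation were lower on average by small amounts, with a median of -0.17, 0 passing and 6 at an unadjusted p under 0.05 in edgeR's test, and DESeq2 called 0. Among them *B2m* was at -0.24 (edgeR adjusted p = 0.479), *Psmb9* of the immunoproteasome at -0.46 (0.441) and the transactivator *Nlrc5* at -0.89 (0.511). Of 35 kept interferon-stimulated genes, 0 passed by edgeR or DESeq2 (0 higher and 2 lower at an unadjusted p under 0.05), with a median of -0.12. In the fit without the 3 libraries richest in B cell transcripts and control 6, the median of interferon-stimulated genes changed sign, to 0.11, and that of MHC class I genes was -0.08.

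**Figure D4:**
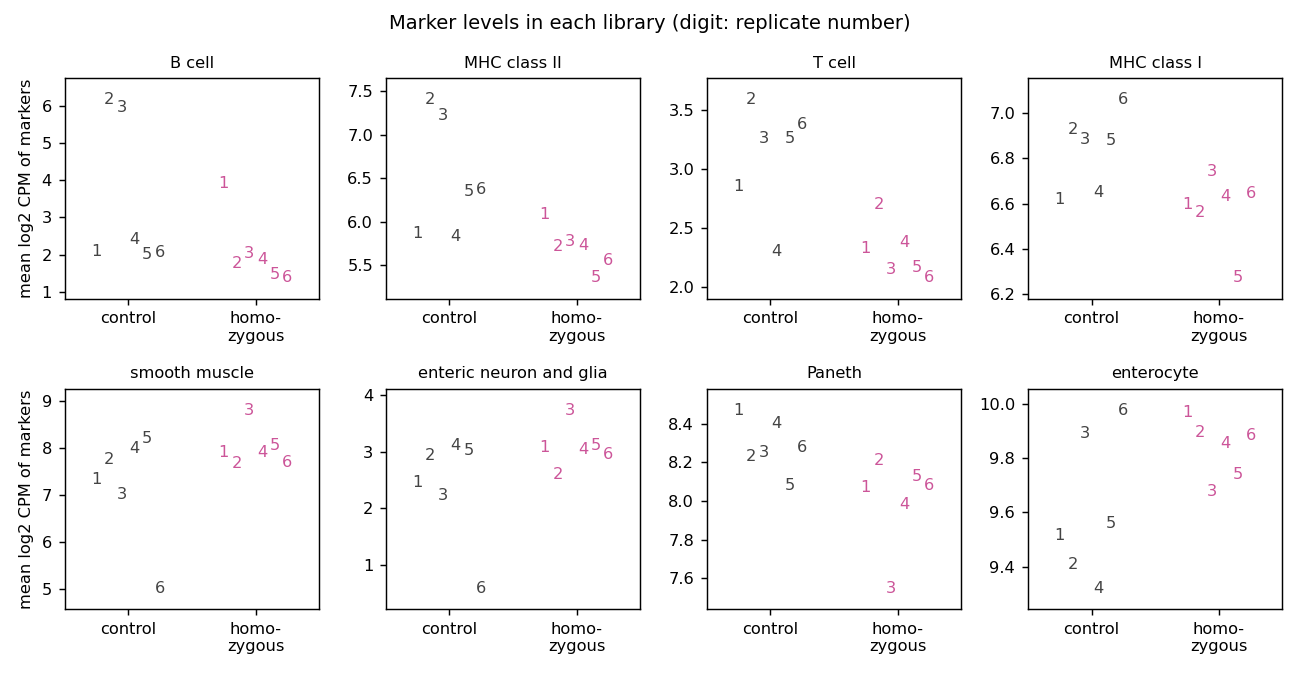
Mean log2 CPM (vertical axis) of the kept genes of 8 marker lists in each of the 6 control and 6 homozygous libraries, with each library drawn as its replicate number. Controls 2 and 3 are highest for B cell and MHC class II genes, and control 6 is lowest for smooth muscle and for enteric neurons and glia.

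Markers of the epithelial lineages gave few calls. Of 14 kept enterocyte markers, *Fabp2* alone passed and the median was 0.06, and *Ada*, an adenosine deaminase of the upper villus, was at 1.26 (edgeR adjusted p = 0.32) with overlapping groups. Goblet cell markers had a median of 0.02 over 10 genes and tuft cell markers -0.13 over 8, with 0 called in each by edgeR or DESeq2 (1 and 0 at an unadjusted p under 0.05). Of 18 kept Paneth cell markers, 17 were lower on average, *Defa39* passed and the median was -0.12, with 3 lower at an unadjusted p under 0.05. DESeq2 called 3, and edgeR called 0 without the 3 libraries richest in B cell transcripts. Homozygous 3 was lowest, at a mean log2 CPM of 7.55 against 7.98 to 8.21 in the others of its group. The pentraxin *Mptx2* was at -1.07 (edgeR adjusted p = 0.166), with homozygous libraries at 44.2 to 136 CPM below controls at 154 to 348 CPM, and *Defa29* was at -0.67 (0.176).
Of 13 kept stem and crypt base markers 0 passed in edgeR's fit, with a median of -0.03 and 3 lower at an unadjusted p under 0.05, among them *Olfm4*, and DESeq2 called 1. Of 25 genes of cell cycle and DNA replication 22 were lower on average, with a median of -0.12, and 0 passed by edgeR or DESeq2 (0 higher and 1 lower at an unadjusted p under 0.05). Gut hormones and other enteroendocrine products gave 0 calls by edgeR among 18 kept genes (2 higher and 3 lower at an unadjusted p under 0.05) and 1 by DESeq2. *Tph1*, the rate-limiting enzyme of serotonin synthesis, ranged from 10.5 to 16.7 CPM in controls and from 9.89 to 10.8 CPM in homozygous mice (-0.36, edgeR adjusted p = 0.253), and *Reg4* was at 0.59 (0.436). *Fgf15*, the ileal hormone that reports bile acid uptake to the liver, was at -0.98 (0.647), and 0 of 9 genes of that axis passed by edgeR or DESeq2, 3 of them lower at an unadjusted p under 0.05.
Genes of the gut wall were higher on average. All 10 smooth muscle markers and all 11 fibroblast markers were higher, with medians of 0.58 and 0.37, and 0 of either passed (0 and 1 at an unadjusted p under 0.05 in edgeR's test), while DESeq2 called 0 and 1. *Myh11* was at 0.68 (edgeR adjusted p = 0.734) and *Pdgfra* at 0.36 (0.165). Without the 3 libraries richest in B cell transcripts and control 6, the medians were 0.22 and 0.10. *Ret*, the receptor tyrosine kinase of enteric neurons, was the only one of 11 neuron and glia markers to pass. It ranged from 12.2 to 22.3 CPM in controls and from 23.9 to 40.3 CPM in homozygous mice and rose by 0.91 (SE 0.13, edgeR adjusted p = 0.00546), while the list, with a median of 0.59, was lowest in control 6. *Ret* did not pass in the fit without control 6 and the 3 libraries richest in B cell transcripts (0.112).

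By position, chromosomes 4 and 6 held 10 called genes each, 1.17% of 853 and 1.41% of 708 genes kept there, against 0.445% over the genome. On chromosome 6, 5 of the 10 lie between *Ret* and *BC064078* (chr6:118151745-129008040), a stretch with 103 genes kept that was chosen after its calls were seen. In that stretch 4.85% of genes were called, and on the rest of the chromosome 0.826%. The 5 genes were *Ret*, *Pianp*, *Ncapd2*, *Klrb1* and *BC064078*.
*BC064078* (chr6:128992952-129008040) ranged from 0.907 to 1.75 CPM in controls and from 4.07 to 6.77 CPM in homozygous mice and rose by 2.05 (SE 0.18, edgeR adjusted p = 5.21e-05). *Klrb1*, a C-type lectin-like receptor gene of natural killer cells nearby and the only one of 4 kept genes of the receptor cluster to pass, rose by 1.99 (SE 0.36, edgeR adjusted p = 0.026), and passed in 6 of 12 fits that left out 1 library, up to 0.0858, without control 3. The unnamed transcript *Gm44215*, between the receptor genes, was apart in the same direction, at 0.928 to 6.32 CPM and 7.25 to 10.4 CPM (1.91, 0.075). Of the 4 kept genes of the cluster, 3 were higher on average, with a median of 0.19. At an unadjusted p under 0.05 in edgeR's test 2 of the 4 were higher, against 4.3% of all genes. The lectin genes *Clec2h* and *Clec2i* nearby did not follow, at 0.01 (0.995) and -0.80 (0.176), each with overlapping groups. *Pianp*, which encodes a ligand of the inhibitory receptor PILRα, ranged from 3.48 to 7.97 CPM in controls and from 12.8 to 22.9 CPM in homozygous mice and rose by 1.82 (SE 0.19, edgeR adjusted p = 0.00034). Without the 3 libraries richest in B cell transcripts and control 6, *Pianp* did not pass (0.0824).
*Gm13394*, a processed pseudogene on chromosome 2 (chr2:28933610-28934609, minus strand), had the smallest p of all genes. It ranged from 2.30 to 3.07 CPM in controls and from 34.2 to 41.9 CPM in homozygous mice and rose by 3.82 (SE 0.09, edgeR adjusted p = 3.06e-11). Its annotated transcript aligned to a transcript of *Gapdh*, the glycolytic dehydrogenase, over 1000 bases with 99.9% identity and 1 mismatch, so reads could be shared between them and the level of *Gm13394* is uncertain. *Gapdh* itself lies in the same stretch of chromosome 6, at chr6:125161715-125166467, next to *Ncapd2*. It ranged from 666 to 758 CPM in controls and from 613 to 726 CPM in homozygous mice (-0.07, SE 0.07, edgeR adjusted p = 0.83).
The medians of heterozygous mice set these genes beside others. For *Gm13394* the median was 2.71 CPM in controls, 33.7 CPM in heterozygous and 37.5 CPM in homozygous mice, for *BC064078* 1.32, 5.98 and 5.54 CPM, for *Pianp* 4.41, 14.9 and 15.2 CPM and for *Ncapd2* 67.1, 54.6 and 53.3 CPM. Like medians in both IEC-*Ppara* groups were not particular to these genes. In the same order, *Plin2* stood at 91.0, 124 and 125 CPM, *Cyp2c65* at 47.2, 111 and 117 CPM and *Cyp4b1* at 44.8, 70.5 and 67.6 CPM. Medians were further apart for *Ppara*, at 39.4, 136 and 211 CPM, *Fabp1*, at 11.5, 117 and 163 CPM, and *Ret*, at 17.1, 21.2 and 31.7 CPM. The heterozygous and homozygous mice share the Cre driver, which the controls lack. Driver and construct therefore cannot be told apart in homozygous against control, and the genotype of these mice on chromosome 6 was not tested.

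**Figure D5:**
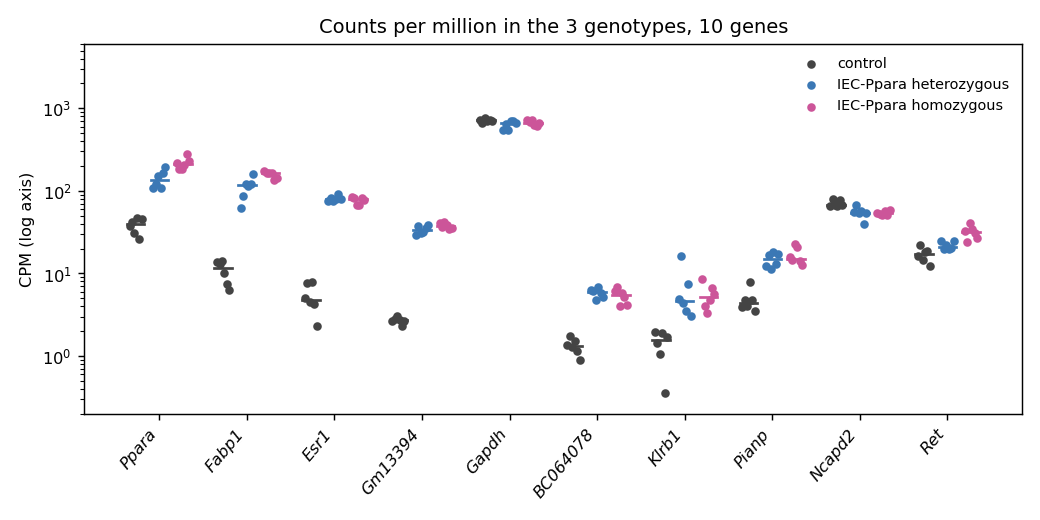
CPM on a log axis in the 6 libraries of each of the 3 genotypes for 10 genes, with each point a library and each bar a group median. *Esr1*, *Gm13394*, *BC064078* and *Pianp* lie at like heights in both IEC-*Ppara* groups, while the medians of *Ppara* go from 39.4 to 136 to 211 CPM.

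The groups held 3 females and 3 males (control) and 2 females and 4 males (homozygous), so the effect of genotype was compared between the sexes. In edgeR's interaction test 0 of 13480 genes (0%) had an adjusted p under 0.05, with 286 at an unadjusted p under 0.05, and DESeq2 also gave 0. The gene of smallest p was *Tsku*, with an interaction of -1.44 (female minus male effect on the log2 scale, SE 0.29, edgeR unadjusted p = 0.00043, adjusted p = 1). It averaged 14.0 CPM in control and 6.15 CPM in homozygous females, and 10.3 and 12.5 CPM in males. *C1qtnf12* (-0.80), *Ighv14-3* (2.82), *Zfp709* (0.99) and *Ints8* (0.51) followed, all with an edgeR adjusted p of 1. Over the 60 called genes the median interaction was -0.18, against 0.00 over all genes, 49 of the 60 had a lower log2 fold change in females than in males, and 4 had an unadjusted p under 0.05 in edgeR's test. With 2 homozygous females, differences between the sexes are measured with low precision.
Homozygous mice varied less among themselves than controls in the called genes. The SD of log2 CPM in homozygous libraries divided by that in controls had a median of 0.76 over the 56 higher genes and was below 1 in 40 of them, against a median of 0.99 over all genes kept. Over the 4 lower genes the median was also 0.76, and 3 of them were below 1. These genes were chosen by a test that uses the same spread, so the ratio is a description.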

How the data were processed

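Whole-thickness ileum of 18 mice was sequenced as poly-A RNA, and the 6 control and 6 homozygous IEC-*Ppara* libraries were analysed. The authors mapped reads to mouse GRCm38 (Ensembl) with STAR, and featureCounts gave the deposited counts from reads that mapped to 1 place and 1 gene, with no normalization. The deposited CPM are these counts over the library total, the deposited FPKM, not used in any result, also divide by gene length, and the deposited log2 CPM carry a prior count of unstated size. The deposited counts are the source of every result but 1 alternative.

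Genes of any biotype with more than 3 CPM in at least 4 of the 12 libraries were kept. EdgeR 4.0.16 (glmQLFit, glmQLFTest, TMM, no covariates) in R 4.3.3 compared the groups, with Benjamini-Hochberg adjustment over all genes kept and a threshold of 0.05. The SE is the fold change divided by the root of the F statistic. The fit was tested on simulated counts. List levels are mean log2 CPM with a prior count of 2. The replicates are separate mice. Library properties were compared by a two-sided exact permutation test, for which the smallest p is 0.00216. Promoter windows came from RefSeq and gene positions from the count files, and *Gm13394* was aligned with blastn 2.17.0 to GENCODE transcripts. Python 3.11.15 with pandas 2.3.3 handled tables.

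Genes named are the 15 largest rises and the falls, called members of the lists, up to 4 further members of a list by p, the genes of the transgenes, the 5 of smallest p for sex, and the remaining called genes, with some items not reported here. Lists are described by counts and medians and were not tested. The comparison and the lists were chosen with earlier results of these data known. *Gapdh*, *Gm44215*, *Clec2h*, *Clec2i* and the stretch of chromosome 6 were chosen after their values were seen. Alternatives were DESeq2 1.42.0, limma 3.58.1 (voom, and its trend test on log2 CPM), all 18 libraries in 1 fit, other scalings and filters, protein-coding genes only, a robust fit, a covariate for sex, a block for replicate number, each library left out in turn, and 2 fits without libraries of unusual composition that were added after seeing the data.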

Additional observations from a re-analysis of the deposited data

Results flagged for a closer look

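In 170 groups of 6 libraries (called genes, the transgene loci and marker lists), 7 held a library that stood apart by Dixon's ratio of its gap to the range of its group, and chance gives about 1 such group in 20. Among called genes, *Klrb1* was at 0.359 CPM in control 5, against 1.07 to 1.93 CPM in the other controls, and *Rtn4* was at 163 CPM in homozygous 3, against 126 to 136 CPM in the other homozygous libraries. The mean log2 CPM of B cell markers was 3.9 in homozygous 1, against 1.38 to 2.02 in the others of its group. Control 6 was low for smooth muscle markers, at 5.01 against 7.02 to 8.21, and for enteric neuron and glia markers, at 0.598 against 2.22 to 3.1. Homozygous 3 was high for smooth muscle markers, at 8.8 against 7.67 to 8.05, and low for Paneth cell markers, at 7.55 against 7.98 to 8.21.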

How the results depend on the processing

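DESeq2 called 129 genes higher and 46 lower, with all 60 genes of the edgeR result among them, and gave 143 and 57 at an unadjusted p under 0.001. Replicate numbers shared by the groups are names only: the correlation of same-numbered libraries ran from -0.436 to 0.354, 3 of 6 pairs were over 0.1 and 0 of 6 numbers gave the best match. With the replicate number as a block, 33 genes were higher, all among the 56, and 0 were lower (12 at an unadjusted p under 0.001), and the sex interaction gave 3 genes. Lower genes at an unadjusted p under 0.001 were 35 without a filter and 26 with at least 10 counts in every library. Without the 3 libraries richest in B cell transcripts, 30 were higher and 0 lower (48 and 9 at an unadjusted p under 0.001), and with control 6 also left out 23 and 0 (50 and 5), both chosen after seeing the data, and *Vil1* changed sign in the last, to 0.005. Without TMM scaling, 33 genes lay wholly below the controls. The share of promoters with DR1 was 4.44% and 40% for higher genes, 0.533% and 24.4% for genes kept and 0.554% and 24.6% for all windows with at most 1 and 3 mismatches. The difference in the share of the 10 highest genes, -0.01 percentage points, was 0.31 with medians. The causes were not tested.
Leaving out 1 library gave 40 (without control 2) to 71 (without control 1) higher and 1 to 9 lower genes, 63 to 87 and 6 to 24 at an unadjusted p under 0.001, and 0 to 7 genes for the sex interaction. Library properties (homozygous minus control) ran from -353005 to 2016565 counts, from 0.0207 to 0.148 percentage points on mitochondrial genes and from -0.141 to 0.177 on the 10 highest genes. Of the 60 called genes, 39 kept their call with each library left out in turn and 18 under all alternatives that gave them a value. The other alternatives kept the counts of calls over all genes within 1.5 times. Over all lists and alternatives, counts of called list members moved by more in 125 instances and by less in 1383. The depth, at least 38528522 counts per library, left *Cyp4a10* at 0 to 8 counts in controls, which limits the precision of its fold change.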

Other observations

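Genes of other nutrients and of the daily clock gave no call by edgeR's quasi-likelihood test with adjustment over all genes kept. Of 18 kept genes for amino acid and peptide transport, 0 passed (1 higher and 1 lower at an unadjusted p under 0.05) with a median log2 fold change of 0.01, and DESeq2 called 0. Of 20 kept genes for sugar transport, the carbohydrate-sensing factor ChREBP and gluconeogenesis, 0 passed (1 higher and 1 lower at an unadjusted p under 0.05) with a median of -0.09, and DESeq2 called 0. Of 15 kept genes for urea, ornithine and citrulline, 0 passed (0 higher and 4 lower at an unadjusted p under 0.05, among them *Slc14a1*) with a median of -0.18, and DESeq2 called 1. Of 20 kept antioxidant genes and targets of NRF2, 0 passed (2 higher and 0 lower) with a median of 0.02, and DESeq2 called 1. The 18 core clock genes had a median of 0.11 with 0 called by either tool and 0 at an unadjusted p under 0.05.
Region and other cell types gave the following values. Markers of the proximal small intestine had *Fabp1* as the only call among 8 kept genes, with a median of 0.04. Markers of the distal small intestine had 0 calls by edgeR or DESeq2 among 12, with 4 lower at an unadjusted p under 0.05 and a median of -0.15. Plasma cell markers had 0 calls by either tool among 6 kept genes, with 3 lower at an unadjusted p under 0.05 and a median of -0.27. Macrophage and dendritic cell markers had 0 calls by either tool among 12, with 1 higher and 1 lower at an unadjusted p under 0.05 and a median of 0.09.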
